A study of Mus musculus with 2 samples.

Results

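Macrophages outside the cycling cluster were 5471 of 17813 mononucleated cells from dystrophic muscle, 1095 of the 7156 cells of the mdx library (15.3%, exact 95% interval 14.5 to 16.2) and 4376 of the 10657 cells of the cKO library (41.1%, 40.1 to 42.0). They were chosen by the authors' cluster numbers 1, 3, 4 and 12, which with cluster 11 hold as many cells per genotype as the macrophages among all cells of the study. The study's own subclustering of macrophages used fewer cells and was not mapped here. The clusters had been defined from the most variable genes of these cells, so comparisons among them are descriptions. Both groups were male mice on the mdx BL/10 background, which lacks dystrophin. In the cKO mice, LoxP sites flanked exons 2 and 3 of Spp1, and Cre was expressed from Lyz2, a gene of myeloid cells that neutrophils use as well as macrophages. The control library is titled mdx, while its genotype label gives a wild-type control, taken here to refer to Spp1. The sources used here do not state whether these mice carried the floxed allele. Forelimb, hindlimb and diaphragm muscles were pooled, the mice are given as 3 per genotype and as 3 months old in the text, or 12 weeks in a legend, and each genotype gave 1 library on the 10x Genomics platform.

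Macrophages are phagocytes that clear damaged myofibers and signal to stromal and muscle stem cells during repair. In muscle they arise from blood monocytes and from resident cells, and in dystrophic muscle inflammatory and reparative forms coexist. Spp1 encodes osteopontin, a secreted glycoprotein that binds integrins and CD44. The marker genes that define macrophages, Adgre1 (F4/80), Csf1r (the receptor for the growth factor CSF1), C1qa (a complement component), Lyz2 (lysozyme) and Cd68 (a lysosomal glycoprotein), have no column in the table used here. The name of these clusters therefore rests on cell numbers, their levels of Spp1 were not analysed here, and monocytes or dendritic cells among them could not be told apart from macrophages.

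Per cell, the table holds its unique molecular identifiers (UMIs, which count captured transcripts), how many genes were detected, which share of the UMIs was mitochondrial, and S and G2M scores, which sum up genes used in DNA synthesis and in division. The 4 clusters held 9008150 UMIs in mdx (exact 95% Poisson interval 9002268 to 9014035) and 25285232 in cKO (25275377 to 25295090), which was 20.9% and 42.7% of the UMIs of each library. These Poisson intervals take each UMI as an independent count and leave out the far larger spread between cells. There were 20 barcodes present in both libraries, and 9 of the 5471 macrophages carried one of them. With 1 library per genotype there was no test. Intervals cover counting error only, a count of 0 is given the limit of 3 counts of its total, and the effect of the genotype cannot be told apart from that of the library or of the mice it came from.

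Within these macrophages, clusters 1 and 4 took much the same share of cells in both genotypes, cluster 3 a larger share in cKO and cluster 12 a smaller one. As a share of all cells of the library, all 4 were higher in cKO, with ratios of cKO to mdx of 2.57, 3.80, 2.66 and 1.61 for clusters 1, 3, 4 and 12, so that the direction of cluster 12 turned. Cluster 1, the largest, held 427 mdx cells (39.0%, 36.1 to 42.0) and 1635 cKO cells (37.4%, 35.9 to 38.8). Cluster 4 held 282 (25.8%, 23.2 to 28.5) and 1116 (25.5%, 24.2 to 26.8). The cKO share divided by the mdx share gave 0.958 (0.881 to 1.04) in cluster 1 and 0.990 (0.885 to 1.11) in cluster 4, and both intervals include 1. Cluster 3 held 214 cells in mdx (19.5%, 17.2 to 22.0) and 1212 in cKO (27.7%, 26.4 to 29.0), a ratio of 1.42, with an interval of 1.25 to 1.61. Cluster 12 was 172 cells (15.7%, 13.6 to 18.0) in mdx and 413 cells (9.44%, 8.59 to 10.3) in cKO, a ratio of 0.601 (0.509 to 0.709). In all, 29.4% of cluster 12 was mdx cells, while clusters 1 and 4 stood at 20.7% and 20.2% and cluster 3 lower still. These shares are relative to each other, since any change in 1 cluster moves the rest. The study's methods state limits of 200 to 1800 genes per cell, which kept 22.2% of mdx and 39.9% of cKO macrophages. Within them the ratio was 1.13 for cluster 3, 0.850 for cluster 12 and 1.52 for cluster 4. In cluster 4 they kept only 17 mdx cells (6.03%) and 186 cKO cells (16.7%).

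Counted by UMIs, cluster 4 came first in both genotypes. Cluster 4 carried 36.8% (mdx) and 35.4% (cKO) of the UMIs of these macrophages, ahead of cluster 1 with 28.2% and 27.8%. Cluster 3 carried 18.1% and 27.3%, and cluster 12 carried 16.9% and 9.56%. The ratio of the cKO to the mdx share of UMIs was 1.50 for cluster 3 and 0.567 for cluster 12.

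**Figure D1:**
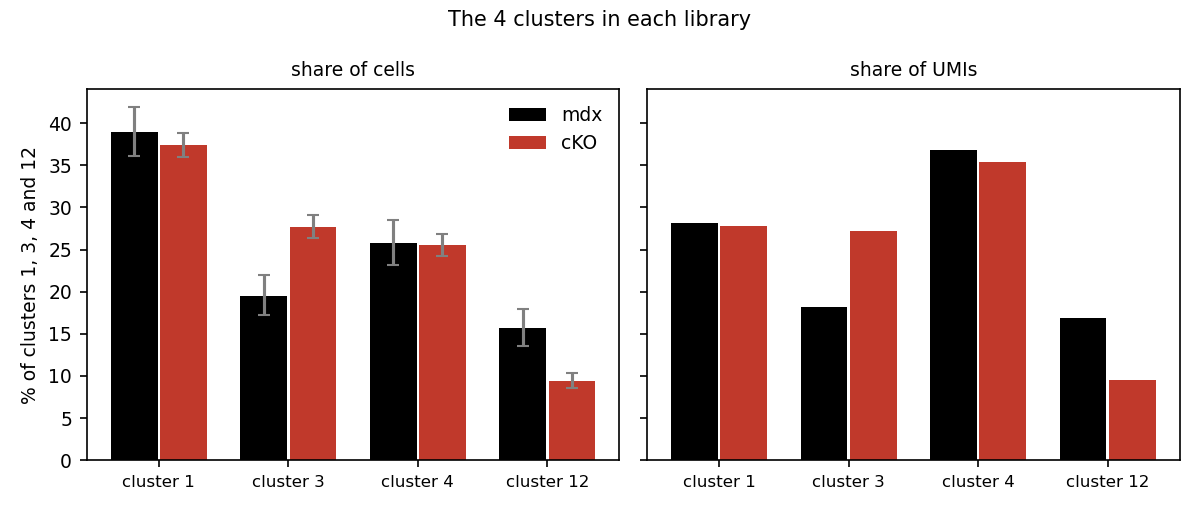
Percent (y axis) of the cells (left) and of the UMIs (right) of macrophage clusters 1, 3, 4 and 12 that each cluster (x axis) held (black mdx, red cKO), where error bars on the left are exact 95% binomial intervals. Cluster 3 stands at 19.5% of cells in mdx and 27.7% in cKO, cluster 12 at 15.7% and 9.44%, and the intervals of clusters 1 and 4 overlap.

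All 4 clusters held more UMIs per cell in mdx than in cKO, and less RNA per cell cannot be told apart from less of it being captured or sequenced. The median UMIs of cluster 1 were 5962 in mdx (quartiles 4312 to 7324.5) and 4258 in cKO (2942.5 to 5441), which is a ratio of mdx to cKO of 1.40. In cluster 3 the medians were 7130.5 UMIs (4803 to 9623.5) and 5356.5 (3895 to 7100), a ratio of 1.33. Cluster 4 had the highest medians, 10262.5 UMIs (7940 to 14148) and 7251.5 (5427 to 9496), a ratio of 1.42. Cluster 12 differed most, with 8797.5 UMIs (6944.5 to 10779) and 5385 (4316 to 7159), a ratio of 1.63. Quartile ranges of the genotypes overlapped in each cluster. A randomly drawn mdx cell had more UMIs than a cKO cell of its cluster in 69.6% of pairs in cluster 1, 65.6% in cluster 3, 72.4% in cluster 4 and 78.8% in cluster 12.

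The difference ran through the whole distribution rather than its centre alone. Over the 4 clusters together, the ratio of mdx to cKO was 1.50 at the 10th percentile of UMIs, 1.44 at the 25th, 1.40 at the median, 1.40 at the 75th and 1.40 at the 90th. Within cluster 3 the same ratio was lower at the 10th percentile (1.21) than at the 90th (1.35), and within cluster 1 it was higher at the 10th (1.43) than at the 90th (1.29). In cluster 12 it fell from 1.57 at the 10th percentile to 1.46 at the 90th, with 1.63 between them at the median.

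Of the 20 clusters of the series, 16 had the higher median of UMIs in mdx, so the direction was shared widely. Macrophage clusters 1, 3 and 4 lay at the low end of the immune clusters: among the 7 clusters of neutrophils, T cells and B cells the ratio ranged from 1.26 to 1.82, and only cluster 10, at 1.26, was below them. Cycling macrophages of cluster 11 had a ratio of 1.54, neutrophils of clusters 7 and 9 ratios of 1.79 and 1.57, and stromal clusters 0 and 2 together 1.46. The ratio of 1.63 in cluster 12 was exceeded by 6 of the 20 clusters.

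**Figure D2:**
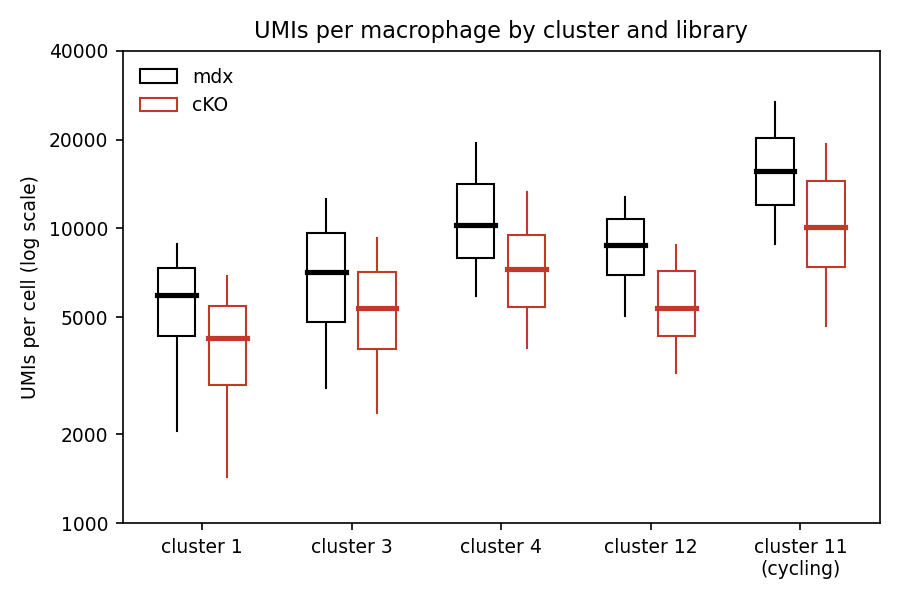
UMIs per cell (y axis, log scale) in macrophage clusters 1, 3, 4 and 12 and, for comparison, in the cycling cluster 11 (x axis), black for mdx and red for cKO, where thick lines are medians, boxes the quartiles and thin lines the 10th to 90th percentiles over cells. Each cluster has its higher median in mdx, with ratios of 1.40, 1.33, 1.42 and 1.63 for clusters 1, 3, 4 and 12, and cluster 4 has the highest median of these 4 in both genotypes.

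The order of the clusters by UMIs was the same in both genotypes, with cluster 4 above 12, 3 and 1. In cKO, clusters 12 and 3 were nearly level, at 5385 and 5356.5 UMIs, and a cluster 3 cell had more UMIs in 47.4% of pairs. In mdx this was 37.4%. Clusters 4 and 1 stood farthest apart, and a cluster 1 cell exceeded a cluster 4 cell in 14.8% of pairs in mdx and 18.2% in cKO. Relative spread was similar in the genotypes, with a standard deviation of 0.584 of the mean in mdx and 0.568 in cKO.

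The extremes of UMIs fell in different clusters. Doublets were not called. Cells above 20000 UMIs were 26 of 282 in mdx cluster 4 (9.22%, 6.11 to 13.2) and 22 of 1116 in cKO cluster 4 (1.97%, 1.24 to 2.97), out of 31 and 24 such cells in all 4 clusters. Cluster 12 had none, which by 3 counts allows a share of up to 1.74% of its 172 mdx cells and 0.726% of its 413 cKO cells. By the exact interval these limits are 2.12% and 0.889%. No cell of either library had fewer than 501 UMIs, so the tail below that value is not seen. Cells under 1000 UMIs were found mainly in cluster 1, where they were 17 cells in mdx (3.98%, 2.34 to 6.30) and 87 cells in cKO (5.32%, 4.28 to 6.52). In cluster 3 they were 2 mdx cells and 31 cKO cells, and in cluster 12 they were 0 of 172 and 4 of 413. Cluster 4 had no cell under 1000 UMIs in either genotype, which allows shares of up to 1.06% and 0.269% by 3 counts, or 1.30% and 0.330% by the exact interval.

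Genes per cell were also higher in mdx, by less than UMIs. The median number of genes was 2007 (mdx) and 1741 (cKO) in cluster 1, 2097 and 1911 in cluster 3, 2745 and 2410.5 in cluster 4, and 2387.5 and 1928 in cluster 12. The ratios of mdx to cKO were 1.15, 1.10, 1.14 and 1.24. Across cells the rank correlation of genes with UMIs was 0.973 in 1095 mdx cells and 0.981 in 4376 cKO cells, values that share their library and depth.

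At the same number of UMIs the direction turned, and cKO macrophages showed more genes. Cells were compared within bins of 0.1 log10 units of UMIs that held at least 10 cells of each genotype. Over the 4 clusters together, mdx cells had fewer genes in 14 of 14 bins, with an average ratio of mdx to cKO of 0.928 and single bins from 0.848 to 0.986, so that cKO cells had 7.78% more genes. The ratio was 0.922 in cluster 1 (8 of 8 bins), 0.928 in cluster 3 (6 of 6), 0.921 in cluster 4 (8 of 8) and 0.927 in cluster 12 (4 of 4). Between 5012 and 6310 UMIs, for example, cluster 1 cells had a median of 1965.5 genes in mdx (98 cells) and 2081.5 in cKO (318 cells). In that bin cluster 4 cells had 1913 genes (20 cells) and 2069 (189 cells). The difference between genotypes was thus close in size from cluster to cluster, although their shares and depths differed.

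Macrophages were not alone in this. Of the 13 other clusters with enough cells, 12 had a ratio below 1, between 0.865 and 0.992, and 3 of them lay below each macrophage cluster. It was 0.937 in cycling macrophages and 0.955 in stromal clusters 0 and 2 together. The neutrophil clusters differed, with 0.894 in cluster 9 (6 of 6 bins lower in mdx, single bins from 0.689 to 0.962). Cluster 7, at 1.01, had no direction (4 of 8 bins lower in mdx).

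**Figure D3:**
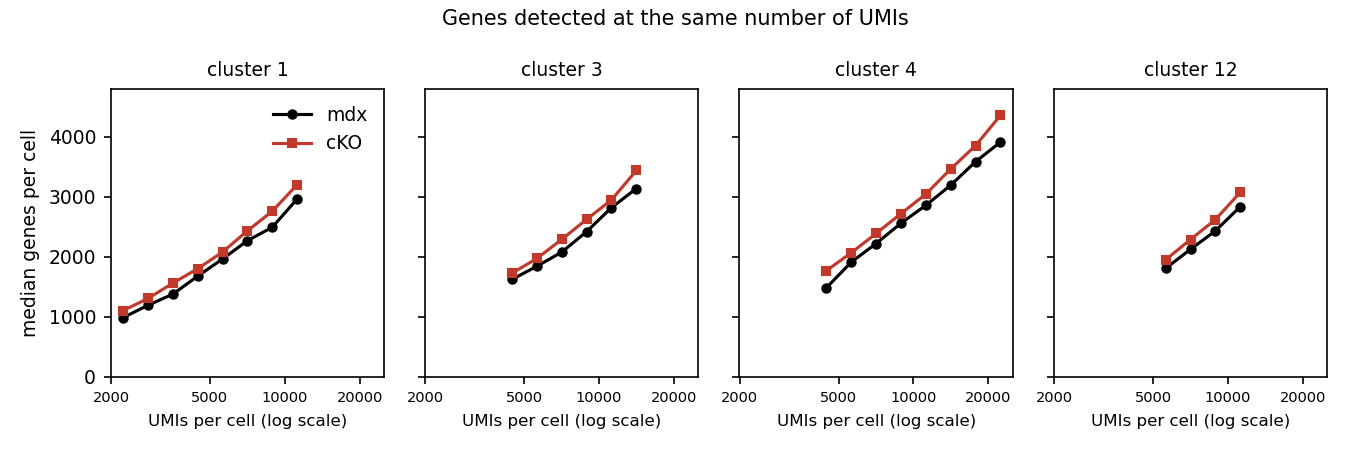
Median genes per cell (y axis) against UMIs per cell (x axis, log scale, bins of 0.1 log10 units) for macrophage clusters 1, 3, 4 and 12 (panels) in mdx (black circles) and cKO (red squares), for bins with at least 10 cells of each genotype. The cKO points lie above the mdx points in each bin of each cluster, with average ratios of mdx to cKO of 0.921 to 0.928.

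Within a library, cluster 1 had the most genes for its UMIs. At matched UMIs it held 1.06 times the genes of cluster 3 in mdx (higher in 5 of 5 bins) and 1.05 times in cKO (12 of 12 bins). Against cluster 12 the ratio was 1.06 in mdx (4 of 4 bins) and 1.07 in cKO (7 of 7 bins), and against cluster 4 it was 1.03 (4 of 5 bins) and 1.02 (8 of 8 bins). Cluster 4 in turn was above clusters 3 and 12, with ratios of cluster 4 to cluster 12 of 1.03 in mdx and 1.04 in cKO. Clusters 3 and 12 were nearly level. The ratio of cluster 3 to 12 was 0.993 in mdx (lower in 4 of 5 bins) and 1.01 in cKO (higher in 6 of 7 bins). Cluster 1, with the fewest genes per cell, therefore had the most genes once UMIs were matched.

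Mitochondrial shares differed little between genotypes, most in cluster 1 by medians and most in cluster 3 at matched UMIs. The median of cluster 1 was 3.34% of UMIs in mdx (quartiles 2.83 to 3.99) and 3.68% in cKO (2.94 to 4.57), a difference of cKO minus mdx of 0.343 percentage points, or 0.207 at matched UMIs with cKO higher in 6 of 8 bins. Cluster 3 had the highest share in both genotypes, 3.84% (3.06 to 4.68) and 4.04% (3.06 to 5.02), a difference of 0.204, and of 0.282 at matched UMIs with cKO higher in 6 of 6 bins. Cluster 4 was at 3.50% (2.90 to 4.38) and 3.58% (2.97 to 4.44). Cluster 12 had the lowest share, 3.22% (2.57 to 3.84) and 3.12% (2.45 to 4.05). Differences in these last 2 were 0.0842 and -0.0960, and at matched UMIs -0.0533 (cKO higher in 4 of 8 bins) and -0.0939 (2 of 4 bins). All these differences are well inside the quartile range of 1 library.

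The upper tail of cluster 1 depended on where it was drawn. Cells with more than 5% mitochondrial UMIs were 9.60% of cluster 1 in mdx (6.98 to 12.8) and 18.7% in cKO (16.9 to 20.7). Above 8% they were 3.04% (1.63 to 5.15) and 2.94% (2.17 to 3.87), with no excess in cKO. In cluster 3 the share above 5% was 20.1% (14.9 to 26.1) and 25.2% (22.7 to 27.7), and the intervals overlap. In cluster 4 it was 13.8% and 14.0%, and in cluster 12 it was 10.5% and 10.9%. The table ends just under 10%, so the tail above that value is not seen.

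Counted rather than taken as a share, mitochondrial UMIs were also higher in mdx. The ratio of mdx to cKO medians for mitochondrial UMIs was 1.28 in cluster 1, against 1.41 for all other UMIs of these cells. It was 1.31 against 1.33 in cluster 3, 1.34 against 1.42 in cluster 4, and 1.53 against 1.64 in cluster 12. Summed over cells, the mitochondrial share in cluster 12 was 3.38% in mdx and 3.36% in cKO, and in cluster 1 it was 3.52% and 3.86%. The rank correlation of the mitochondrial share with UMIs was near 0 over the 1095 mdx cells (0.0471) and the 4376 cKO cells (-0.0139), and highest in cluster 3, at 0.160 over 214 mdx cells. Clusters 1, 3, 4 and 12 all lay far from neutrophils of clusters 7 and 9, whose medians were 0.517% and 0.581%, and below cycling macrophages, at 4.08% and 4.12%.

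**Figure D4:**
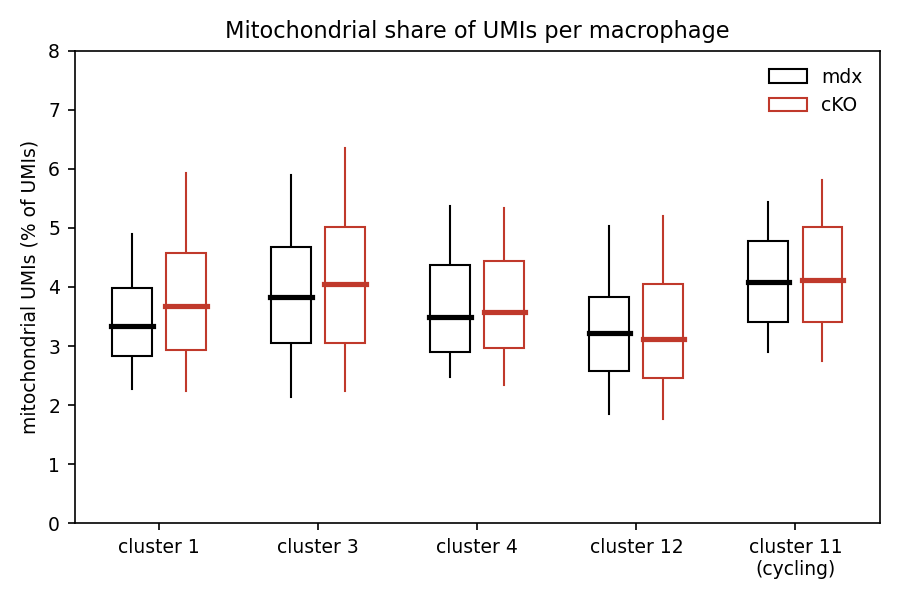
Mitochondrial UMIs as a percent of all UMIs per cell (y axis) in macrophage clusters 1, 3, 4 and 12 and in the cycling cluster 11 (x axis), black for mdx and red for cKO, where thick lines are medians, boxes the quartiles and thin lines the 10th to 90th percentiles over cells. Boxes of the genotypes overlap in every cluster, cluster 3 is the highest and cluster 12 the lowest of the 4, and cluster 1 shows the widest gap between medians, 3.34% in mdx and 3.68% in cKO.

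Few of these macrophages scored as cycling, which follows in part from leaving out the cycling cluster 11. A cell was counted when the higher of its S and G2M scores was above 0.2, a level passed by 95.4% of mdx and 97.3% of cKO cells of the cycling cluster 11. Outside it, 18 of 1095 cells passed in mdx (1.64%, 0.977 to 2.59) and 50 of 4376 in cKO (1.14%, 0.849 to 1.50), a ratio of cKO to mdx of 0.695 (0.407 to 1.19). At matched UMIs this ratio was 1.10, and for clusters 1, 4 and 12 it was 0.961, 1.46 and 1.11 in place of 0.410, 0.758 and 0.787, so no direction is read from it. Of all macrophages above 0.2, cluster 11 included, cells outside cluster 11 were 6.29% in mdx (3.77 to 9.76) and 11.3% in cKO (8.47 to 14.6). That share depends on the sizes of the parts and does not measure cycling per cell. Cluster 11 held 281 mdx and 405 cKO cells, beside the 1095 and 4376 outside it.

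Cluster 12 had the largest share of high scores in both genotypes. There 9 of 172 cells in mdx (5.23%, 2.42 to 9.70) and 17 of 413 in cKO (4.12%, 2.42 to 6.51) were above 0.2. The share was 1.64% and 0.673% in cluster 1, and 0.709% and 0.538% in cluster 4. In cluster 3 it was 0 of 214 mdx cells, which allows up to 1.40% by 3 counts or 1.71% by the exact interval, and 16 of 1212 cKO cells (1.32%, 0.756 to 2.13). The scores behind the calls in cluster 12 differed. In cKO, 16 of the 17 cells were above 0.2 on the S score alone and 1 on both, while in mdx 4 were above on S alone, 4 on G2M alone and 1 on both. These counts are small, and the split was not particular to cluster 12. Cluster 1 had 1 cell on S alone and 6 on G2M alone in mdx, and 7 and 3 in cKO. In cluster 4 they were 0 and 2 in mdx, and 1 and 5 in cKO. Over all 4 clusters they were 5 and 12 in mdx, and 32 and 14 in cKO. Cells above 0.2 were deeper than the rest, with a median of 9226.5 against 7333 UMIs in mdx and 7426.5 against 5224.5 in cKO.

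**Figure D5:**
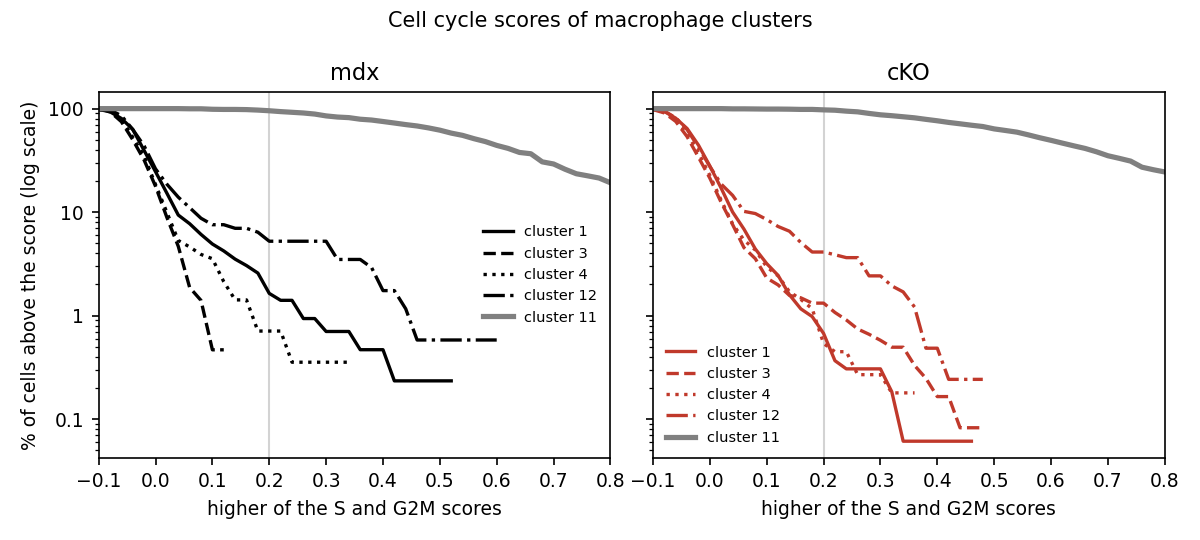
Percent of cells (y axis, log scale) with the higher of the S and G2M scores above the value on the x axis, for macrophage clusters 1, 3, 4 and 12 (line styles) in mdx (left, black) and cKO (right, red) and for the cycling cluster 11 (grey), where the vertical line marks 0.2 and lines end where no cell is left. Cluster 12 has the highest line of the 4 at 0.2, at 5.23% for mdx and 4.12% for cKO, and cluster 11 is at 95.4% and 97.3%.

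The authors' phase calls gave far larger shares. S or G2M was called for 21.9% of the mdx macrophages (19.5 to 24.5) and 24.7% of the cKO macrophages (23.4 to 26.0), and of the cells so called 7.50% and 4.63% had a score above 0.2. In the table a cell was called G1 only where both scores were below 0, so any score above 0 gave another phase. Calls of S were 14.2% in mdx and 19.1% in cKO, and calls of G2M 7.67% and 5.58%. In cluster 1 calls of G2M made up 12.9% in mdx and 8.07% in cKO, and calls of S 11.7% and 19.8%. Median scores were below 0 throughout, at -0.0426 and -0.0395 for S and -0.0732 and -0.0763 for G2M.

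These calls moved with depth. Among macrophages with 500 to 2000 UMIs, 48.2% of 56 cells in mdx (34.7 to 62.0) and 43.9% of 383 in cKO (38.8 to 49.0) had such a call. Between 2000 and 4000 UMIs the share was 28.2% and 29.4%, between 4000 and 8000 it was 20.1% and 20.4%, and above 8000 it was 19.5% and 23.2%. The median G2M score fell over the same ranges, from -0.0261 to -0.0880 in mdx and from -0.0467 to -0.0940 in cKO. Its rank correlation with UMIs was -0.344 over 1095 mdx cells and -0.315 over 4376 cKO cells, while that of the S score was -0.0549 and -0.0644. These values pool clusters that differ in depth. Within single clusters the G2M correlation ran from -0.170 (cluster 1) to -0.443 (cluster 3) in mdx. In cKO it ran from -0.104 (cluster 12) to -0.328 (cluster 3). The share above 0.2 took another course and was highest in the deepest cells. In cKO it was 1.31% (0.425 to 3.02), 0.590% (0.192 to 1.37) and 0.719% (0.419 to 1.15) in the lower ranges and 2.94% (1.88 to 4.39) above 8000 UMIs. In mdx it was 1 of 56, 0 of 85 and 5 of 482 cells, and 12 of 472 (2.54%, 1.32 to 4.40) above 8000 UMIs. At matched UMIs the median G2M score of the pooled clusters was lower in cKO in 11 of 14 bins. The average difference of cKO minus mdx was -0.0117, small beside the threshold of 0.2. Single clusters were uneven. In cluster 1 cKO was lower in 4 of 8 bins (-0.00805) and in cluster 4 in 5 of 8 (-0.00479). It was lower in 6 of 6 bins in cluster 3 (-0.0109) and 4 of 4 in cluster 12 (-0.0161).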

How the data were processed

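Mononucleated cells of 2 libraries were analysed from 1 table with a line per cell. Cell Ranger 7 and the mm10 build stand in the submitters' processing notes, and the authors filtered and clustered the cells in Seurat at a resolution of 0.5. The deposited UMI and gene numbers are raw counts per cell. The deposited mitochondrial value is a fraction and was multiplied into percent. Each deposited S or G2M value is a score whose calculation was not given in the sources used here. Libraries named Neg and Pos were read as Cre-negative (mdx) and Cre-positive (cKO), whose cell numbers equal those of the study. The labels of that mdx sample give its genotype as a wild-type control, taken here to refer to Spp1.

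Medians, quartiles, exact (Clopper-Pearson) and Poisson intervals, log intervals of ratios of shares and values within UMI bins, weighted by the cells of a bin, were obtained with NumPy 2.4.6, SciPy 1.17.1 and pandas 2.3.3 under Python 3.11.15 and plotted by Matplotlib 3.10.9. Matched ratios and intervals were tested on simulated data. No gene counts were used, so cells could not be thinned to equal depth, and no gene was given a value, by the rule for named genes. No doublets were called. Clusters, measures and thresholds were chosen with earlier results of these data known. Alternatives were filters on UMIs, genes and the deepest 5% of cells, the limits of the methods (200 to 1800 genes, at most 20% mitochondrial UMIs), equal weights for clusters, means, bin widths of 0.05 and 0.2, thresholds of 0.1 and 0.3, phase calls and other denominators. Leaving out barcodes found in both libraries was chosen after seeing the data.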

Additional observations from a re-analysis of the deposited data

How the results depend on the processing

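No paired analysis was possible because each genotype had 1 library and no test was run. An alternative was taken to leave a value in place where it stayed within the 95% interval of that value, or, for genes at matched UMIs, within 1 SD of the bins. For the main values 58 alternatives did so, 11 moved a value and 1 reversed it. A value could count as reversed only if its own interval excluded no difference. The cycling share ratio and the share ratios of clusters 1 and 4, whose intervals include 1, also crossed 1 under some alternatives. The ratio of mdx to cKO genes at matched UMIs ranged from 0.924 to 0.941 over 9 alternatives, and the mitochondrial difference from 0.145 to 0.326 points over 8. Within the limits of the methods, which end at 1800 genes and so remove deep cells, the UMI ratio of mdx to cKO was 1.10, the cycling share ratio of cKO to mdx 1.53 in place of 0.695, and the cluster share ratio 1.13 for cluster 3, 1.52 for cluster 4 and 0.850 for cluster 12. As a share of all cells of the library the ratio was 2.57, 3.80, 2.66 and 1.61 for clusters 1, 3, 4 and 12, so that cluster 12 turned from lower to higher in cKO. With cluster 11 in the denominator it was 1.10, 1.63 and 1.14 for clusters 1, 3 and 4. Within single clusters 95 further values stayed and 13 moved, most of them within the limits of the methods. There the mitochondrial difference of cluster 4 was -1.66 points, but it rested on only 17 mdx cells, beside 186 cKO cells. Few mdx cells limit the rarest classes, with 18 above the score of 0.2.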
